A study of Mus musculus with 35 samples.

Results

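The genes described here are the Serpin protease inhibitors, taken as every gene whose symbol is Serpin, a clade letter from a to i, a number and any further letters, other than Serpinh1. The rule used symbols and no measured value. It gave the 62 genes described here among 44853 symbols of the induction table and 8 of them among the 6275 genes of the siRNA table. By clade there were 25 in clade A, 28 in clade B, 1 in clade C, 1 in clade D, 2 in clade E, 2 in clade F, 1 in clade G and 2 in clade I.

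Polyadenylated RNA was sequenced from KH2 mouse embryonic stem (ES) cells, of mixed C57BL/6 and 129/Sv origin, in which doxycycline (Dox) switches on a GATA6 transgene. GATA6 is a transcription factor of the primitive endoderm, the extraembryonic layer that gives rise to parietal and visceral endoderm. Groups of 3 libraries were collected at 0 h without Dox and after 16, 24, 48, 72, 96 and 168 h in 1 µg/mL Dox. The reference group was 2 libraries of X10, an extraembryonic endoderm (XEN) line of CD1 origin that received no Dox. In the siRNA series, cells of clone G6.3 received control siRNA (siCTL) or siRNA against Oct4 (siOct4) and then 48 h of Dox, with 6 libraries each. All cells grew on mitotically inactive embryonic fibroblasts, and LIF was present in every culture but XEN. For RNA, the study's methods describe a step to remove the fibroblasts by adhesion before lysis of GATA6-inducible cells, with no mention of XEN. Which clone gave the induction libraries is not given in the sources used here. Line, strain, medium and Dox differ together between XEN and induced cells and cannot be told apart.

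Serpins are proteins that trap proteases. An inhibitory serpin exposes a flexible reactive loop as bait, and once the protease cuts it the loop folds into the body of the serpin and drags the enzyme along, which ends the activity of both. The hinge at the start of the loop must be free to move and is therefore alike among inhibitory serpins, whereas the stretch behind it, which holds the bond that is cut, decides which protease is caught. Clade B serpins stay mostly inside cells and shield them from their own or foreign proteases, while most other clades are secreted and act on clotting, fibrinolysis and complement. Parietal endoderm secretes a thick basement membrane and is known for its plasminogen activator, so that protease inhibitors are part of its secretory programme.

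The stretches of coding sequence that specify the reactive loop are printed for the members on which the results turn, since they show how close neighbours of 1 cluster differ. They were read from the GENCODE transcripts of mm10, 5′ to 3′ on the coding strand. The 30 bases in lower case encode the hinge and the 45 bases in capitals encode the bait part behind it.
Serpinb6a, chr13:33918125-33918199, minus strand: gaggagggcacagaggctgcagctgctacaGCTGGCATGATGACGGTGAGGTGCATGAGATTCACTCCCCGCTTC
Serpinb6c, chr13:33880012-33880086, minus strand: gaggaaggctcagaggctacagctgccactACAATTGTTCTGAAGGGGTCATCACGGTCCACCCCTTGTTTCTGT
Serpinb6b, chr13:32978201-32978275, plus strand: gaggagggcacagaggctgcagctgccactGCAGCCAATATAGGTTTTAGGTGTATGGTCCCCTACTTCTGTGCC
Serpinb9b, chr13:33039796-33039870, plus strand: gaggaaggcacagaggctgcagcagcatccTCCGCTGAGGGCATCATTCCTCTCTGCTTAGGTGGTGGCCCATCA
Serpinb9e, chr13:33259971-33260045, plus strand: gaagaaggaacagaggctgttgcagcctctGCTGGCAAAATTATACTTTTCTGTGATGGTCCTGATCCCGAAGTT
Serpina3m, chr12:104393763-104393837, plus strand: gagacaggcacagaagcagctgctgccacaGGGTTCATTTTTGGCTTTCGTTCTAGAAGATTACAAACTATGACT
Serpina3n, chr12:104413442-104413516, plus strand: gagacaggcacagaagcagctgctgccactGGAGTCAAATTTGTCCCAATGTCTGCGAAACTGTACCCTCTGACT
Serping1, chr2:84765652-84765726, minus strand: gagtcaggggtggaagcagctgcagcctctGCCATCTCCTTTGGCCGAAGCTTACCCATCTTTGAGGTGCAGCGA
Serpine2, chr1:79796866-79799498, minus strand: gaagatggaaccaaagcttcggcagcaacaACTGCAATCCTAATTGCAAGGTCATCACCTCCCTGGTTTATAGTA

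Each stretch lies within 1 coding exon, except in Serpine2, where it is joined from 2 exons and the interval includes the intron between them. Serpinb6a and Serpinb6c were identical at 87.1% of the aligned coding bases, at 83.3% of the hinge bases and at 33.3% of the bait bases. Serpinb6a and Serpinb6b were identical at 86.3% of the coding bases, at 93.3% of the hinge and at 44.4% of the bait. Serpina3m and Serpina3n differed least in the hinge, with 96.7% identity, against 53.3% in the bait. In each of these pairs the bait was less alike than the hinge. Each loop was located by an amino acid pattern within the hinge, and both parts were compared without gaps. Likeness of the hinge was therefore in part set by the search.

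Levels are given in TPM, the authors' measure of transcript share, which is scaled by transcript length and can be set side by side between genes. Tests were run with limma on log2(TPM + 1), so that the changes of genes under a few TPM are understated. A gene was called at an adjusted p under 0.05 and a log2 change beyond 1 in the induction series or 0.5 in the siRNA series. Of the 62 serpins, 14 reached a mean of 1 TPM in some group and were tested among 15057 genes, 36 others were detected below that level and 12 were listed at 0 in every library. The tested members passed that filter through the group in which they were highest.

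The summed level of the 62 genes was 132 ± 12.4 TPM at 0 h (SD, n = 3), with libraries between 119 and 143 TPM. At 168 h it was 788 ± 115 TPM, with libraries between 712 and 920.1 TPM. In XEN cells it was 349 ± 5.22 TPM (n = 2). Serpinb6a supplied 53.0% of the sum at 0 h and 42.1% at 168 h. The second largest contributor was Serpine2 at each time from 0 h to 168 h and Serpinb6c in XEN cells. At 168 h Serpinb6a, Serpine2, Serpinb6c and Serping1 together made up 94.9% of the summed level. Few of the 62 genes thus carried nearly all of their summed level.

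At 16 h none of the 14 tested members was called, where 1.97% of all tested genes were called higher and 0.804% lower. At an unadjusted p under 0.05 limma gave 1 member higher and 2 lower at that time. At 24 h none was called either, against 3.24% and 2.44% of all genes. At an unadjusted p under 0.05 limma gave 3 higher and 3 lower. The share of all genes at an unadjusted p was not counted at either time, so these member counts have no baseline. At 48 h 3 members were higher and 1 was lower, against 9.14% and 7.26%. At 72 h 6 were higher and 1 was lower, against 14.7% and 11.5%, and at 96 h the counts were again 6 and 1, against 15.4% and 14.1%. At 168 h 5 were higher and 1 was lower, against 22.6% and 16.5% of all genes. The median log2 change of the tested members at 168 h was 0.63, where that of all tested genes was 0.09. The 6 comparisons share the 0 h libraries.

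**Figure D1:**
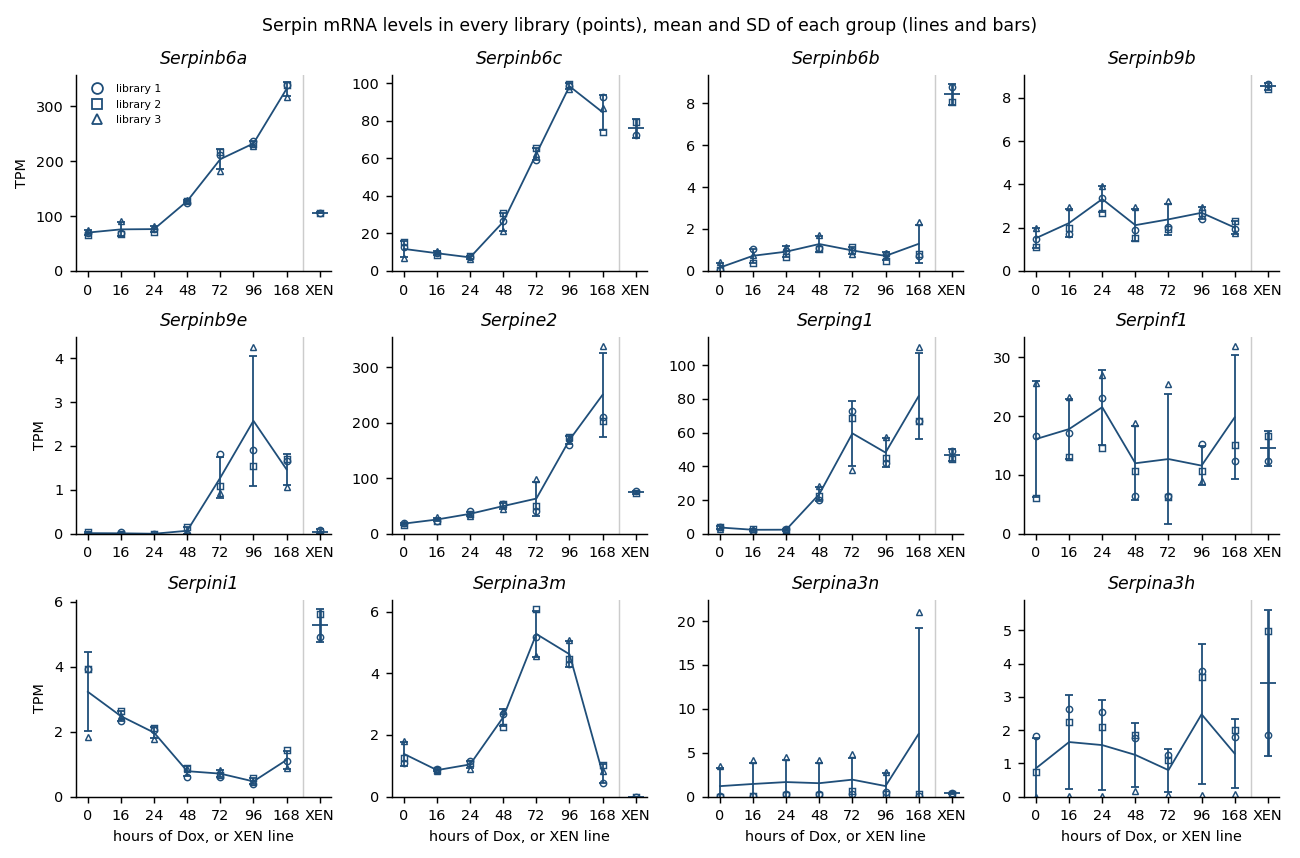
TPM of 12 serpins (vertical axes, linear, each from 0) against hours of Dox or the XEN line (horizontal axes). Circles, squares and triangles are libraries 1, 2 and 3, and lines and bars are the mean and SD of each group. Serpinb6a, Serpine2 and Serping1 have their highest mean at 168 h, Serpinb6c at 96 h and Serpina3m at 72 h, whereas Serpinb6b, Serpinb9b and Serpini1 have theirs in XEN cells.

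Among the intracellular clade B members, Serpinb6a had the highest mean of the 62 genes described here in every group. It is the mouse counterpart of human SERPINB6, an inhibitor of trypsin-like proteases and cathepsin G in the cytoplasm. Its level was 69.5, 65.6 and 74.4 TPM at 0 h, and 125, 128 and 129 TPM at 48 h. At 96 h the libraries had 237, 231 and 228 TPM and at 168 h 338, 339 and 317 TPM. From 48 h on, every library lay above the highest at 0 h. The means at 0 h and 168 h differed 4.75-fold, by 2.23 on the log2 scale (SE 0.09, adjusted p = 5.14e-14). The change was first past both thresholds at 72 h, since at 48 h its log2 value was 0.86. In XEN cells Serpinb6a stood at 105 and 106 TPM, well under the 168 h libraries, with a log2 difference of -1.64 (adjusted p = 2.38e-10). Serpinb6a overlaps Nqo2 and Ripk1 on the opposite strand, and both library preparation and counting used strand.

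Serpinb6c, the gene beside Serpinb6a, had a sharper time course. Its libraries had 12.8, 15.6 and 6.86 TPM at 0 h and 7.34, 7.79 and 6.56 TPM at 24 h. They had 26.6, 30.7 and 21.3 TPM at 48 h and 98.7, 99.9 and 96.8 TPM at 96 h. The groups at 0 h and 24 h overlapped, while all libraries from 48 h on lay above both. The log2 change was 1.15 at 48 h (SE 0.19, adjusted p = 3.64e-05) and 3.03 at 96 h (adjusted p = 3.41e-11). Without the libraries numbered 3 the value at 48 h was 0.97, just inside the fold change minimum, with an adjusted p of 2.40e-05. At 168 h the mean was 84.6 ± 9.42 TPM and in XEN cells 76.0 ± 4.96 TPM, with a log2 difference of -0.15 (SE 0.21, adjusted p = 0.590). Induced cells and XEN cells therefore overlapped for Serpinb6c but not for its neighbour Serpinb6a.

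Serpinb6b is the remaining expressed member of the b6 trio and lies at the other end of the cluster (chr13:32965209-32979067), beside Serpinb9 and Serpinb9b. Its level was 0.0406, 0.0406 and 0.406 TPM at 0 h and 0.733, 0.802 and 2.34 TPM at 168 h, whereas the XEN libraries had 8.77 and 8.06 TPM. XEN cells lay above every induced library, with a log2 difference from 168 h of 2.11 (SE 0.24, adjusted p = 9.34e-07). Against 0 h the log2 change at 168 h was 0.93 (adjusted p = 7.46e-04), which is inside the fold change minimum. Serpinb9b, related to the granzyme B inhibitor SERPINB9, had 1.94, 2.32 and 1.74 TPM at 168 h and 8.64 and 8.42 TPM in XEN cells. That difference was 1.67 on the log2 scale (SE 0.21, adjusted p = 2.88e-06), and its largest difference from 0 h during induction was 0.79 at 24 h (adjusted p = 0.00365), also inside the minimum. Serpinb9, which lies between these genes, was under the filter, with a mean of 0.359 TPM at 168 h and 0.809 TPM in XEN cells. Serpinb6b and Serpinb9b were thus both higher in XEN cells than in the 168 h libraries.

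The Serpinb9 genes further along the chromosome had the opposite pattern. Serpinb9e was at most 0.152 TPM in any library up to 48 h and had 1.82, 1.08 and 0.933 TPM at 72 h. It had 1.92, 1.54 and 4.26 TPM at 96 h and 1.65, 1.70 and 1.05 TPM at 168 h, and the XEN libraries had 0.0809 and 0 TPM. No library from 72 h to 168 h overlapped those of earlier times or of XEN cells. Against 0 h it was higher by 1.74 on the log2 scale at 96 h (SE 0.20, adjusted p = 2.09e-07) and 1.27 at 168 h (adjusted p = 9.33e-06), and XEN cells differed from 168 h by -1.24 (adjusted p = 1.34e-04). At 72 h it was 1.15 (adjusted p = 4.26e-05), and 0.98 without the libraries numbered 1 (adjusted p = 0.0136). Serpinb9d, Serpinb9f and Serpinb9g were under the filter and had their highest means at 96 h, of 0.842, 0.964 and 0.842 TPM. Parts of these transcripts are shared with near copies: 17.5% of the 75-base words of Serpinb9e, 65.5% of those of Serpinb9f and 44.9% of those of Serpinb9g also occur in transcripts of another gene, so their separate levels are uncertain. For Serpinb6a and Serpinb6b no such word was shared, and for Serpinb6c under 1% were.

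**Figure D2:**
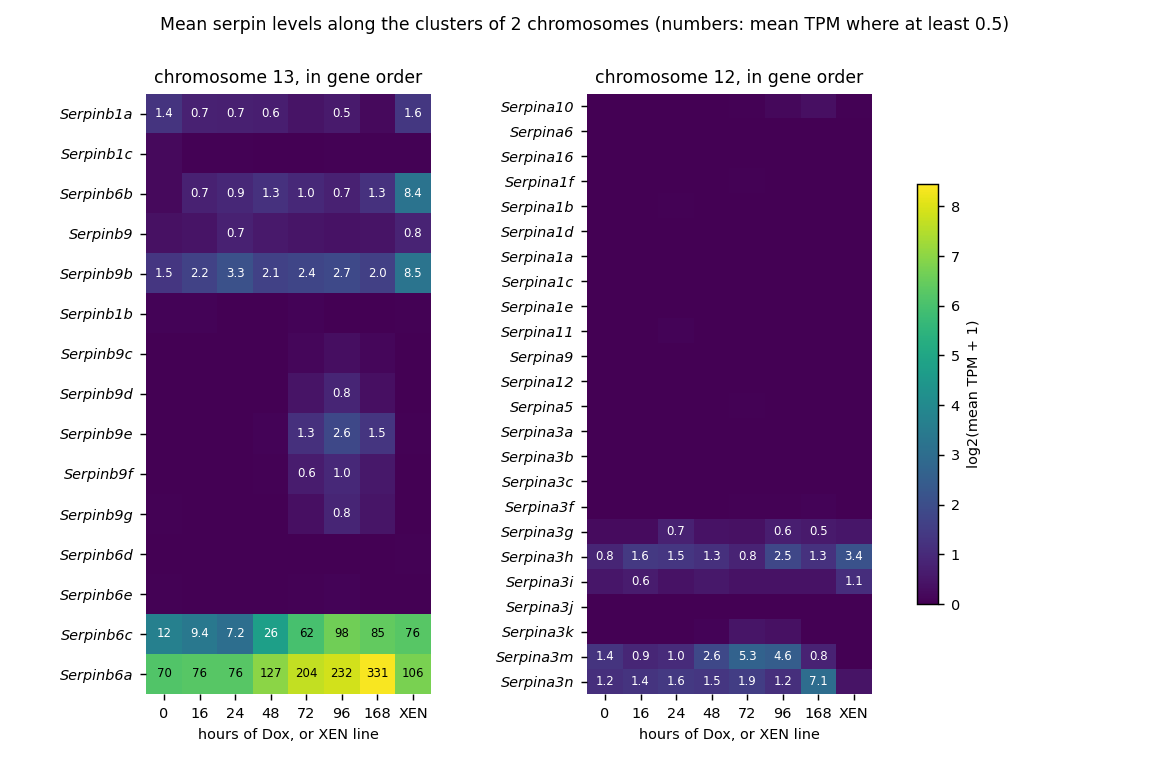
Group mean levels of the 15 serpins on chromosome 13 and the 24 on chromosome 12 (rows, in gene order) by hours of Dox or in XEN cells (columns), coloured by log2(mean TPM + 1), with the mean TPM written where it is at least 0.5. On chromosome 13 Serpinb6c and Serpinb6a lead the induced groups, Serpinb9e to Serpinb9g appear from 72 h, and Serpinb6b and Serpinb9b stand at 8.41 and 8.53 TPM in XEN cells.

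Serpinb1a, an inhibitor of neutrophil elastase-like proteases, was the only member called lower at 168 h. It had 0.833, 1.90 and 1.45 TPM at 0 h and 0.0916, 0 and 0.385 TPM at 168 h. XEN cells had 1.33 and 1.81 TPM, within the range at 0 h. The log2 change at 168 h was -1.04 (SE 0.23, adjusted p = 4.02e-04), and XEN cells were 1.16 above 168 h (adjusted p = 8.87e-04). Without the libraries numbered 2 these values were -0.79 (adjusted p = 0.00926) and 0.92 (adjusted p = 0.0305), inside the fold change minimum.

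Of the tested secreted serpins described here, Serpine2 and Serping1 rose most. Serpine2 is protease nexin-1, which traps thrombin, urokinase and tissue plasminogen activator at the cell surface. Its libraries had 19.0, 16.1 and 19.6 TPM at 0 h and 53.1, 52.7 and 43.8 TPM at 48 h. At 96 h they had 160, 174 and 173 TPM and at 168 h 210, 203 and 338 TPM, with the highest in library 3. Every library from 16 h on lay above those at 0 h. The log2 change was 1.40 at 48 h (adjusted p = 3.36e-05) and 3.67 at 168 h (SE 0.23, adjusted p = 2.16e-11), a 13.7-fold difference of means. At 24 h it was 0.94 (adjusted p = 0.00396), and without the libraries numbered 3 it was 1.06 (adjusted p = 4.86e-06) and called. XEN cells had 76.2 and 72.9 TPM, between the means of 72 h and 96 h. Both lay within the range of the 72 h libraries, 41.8 to 98.5 TPM. XEN cells differed from 168 h by -1.69 (SE 0.25, adjusted p = 2.12e-05).

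Serping1 is C1 inhibitor, which blocks the C1r and C1s proteases of complement and the kallikrein of plasma. It had 4.17, 4.11 and 2.88 TPM at 0 h and 3.08, 2.09 and 2.05 TPM at 24 h. At 48 h the libraries had 20.2, 22.3 and 28.1 TPM, at 72 h 72.7, 68.5 and 37.6 TPM and at 168 h 66.8, 67.2 and 111 TPM. All libraries from 48 h on lay above all earlier ones. The log2 change was 2.38 at 48 h (SE 0.24, adjusted p = 8.46e-08) and 4.10 at 168 h (SE 0.24, adjusted p = 8.38e-12), and the means at 0 h and 168 h differed 22.0-fold. XEN cells, at 49.2 and 44.1 TPM, were 3.34 above 0 h on the log2 scale (adjusted p = 1.17e-09) and differed from 168 h by -0.76 (adjusted p = 0.0239), inside the minimum. The mRNAs of its complement targets were low, with C1s1 at a mean of 1.72 TPM and C1ra at 0.856 TPM at 168 h. Serping1 and Serpine2 were both highest in library 3 of 168 h, where the summed level of 10 fibroblast markers was 286 TPM, against 137 and 140 TPM in the other libraries of that time. Without the libraries numbered 3 both remained called at 168 h.

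The plasminogen activators, targets of Serpine2, were measured beside it. Plat, tissue plasminogen activator and a parietal endoderm marker, averaged 0.913 ± 0.642 TPM before Dox. It averaged 25.1 ± 5.11 TPM after 96 h, 198 ± 26.3 TPM after 168 h and 415 ± 1.89 TPM in XEN cells. Plau, urokinase, did not exceed a mean of 3.06 TPM in any group. Plaur, the urokinase receptor, averaged 17.7 TPM at 0 h and 266 TPM at 168 h. Serpine2, at 18.2 TPM at 0 h and 250.2 TPM at 168 h, averaged above Plat at each time of the induction. At 168 h, however, Serpine2 had 210 and 203 TPM in libraries 1 and 2, near the Plat mean, and 338 TPM in library 3. XEN cells combined the highest Plat with a Serpine2 level of 74.6 TPM.

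**Figure D3:**
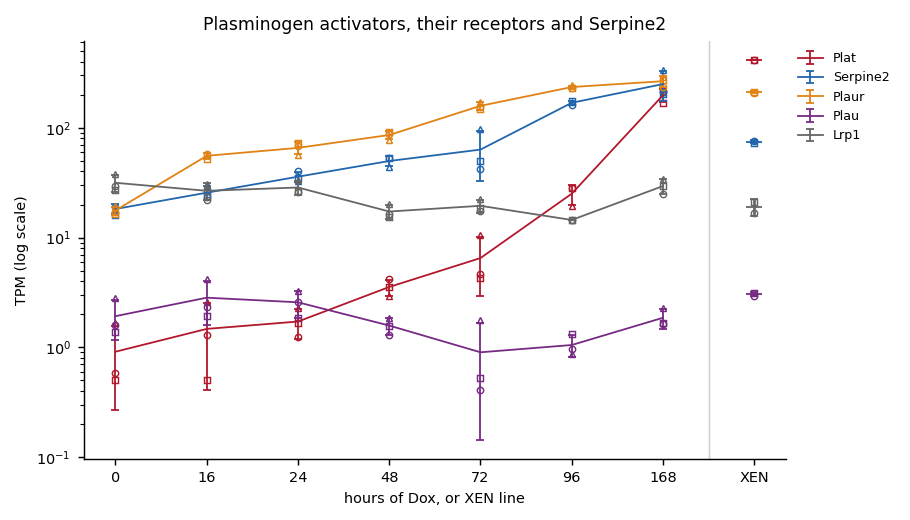
TPM on a log axis of the plasminogen activators Plat and Plau, the urokinase receptor Plaur, the clearance receptor Lrp1 and the inhibitor Serpine2 by hours of Dox or in XEN cells. Points are libraries, and lines and bars are the mean and SD of each group. The mean of Plat lies below that of Serpine2 up to 168 h and above it in XEN cells, at 415 against 74.6 TPM.

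Serpini1, neuroserpin, a secreted inhibitor of tissue plasminogen activator best known from neurons, was lower during induction. It had 3.92, 3.94 and 1.83 TPM at 0 h, 0.609, 0.893 and 0.843 TPM at 48 h, and 0.396, 0.567 and 0.436 TPM at 96 h. The libraries of both later times lay below all at 0 h. Its log2 difference from 0 h was -1.20 at 48 h (SE 0.17, adjusted p = 5.28e-06), -1.27 at 72 h (adjusted p = 1.71e-06) and -1.48 at 96 h (adjusted p = 1.80e-07). At 168 h, with 1.09, 1.42 and 0.872 TPM, it was -0.95 (adjusted p = 3.70e-05), just inside the minimum. XEN cells had the highest level of all groups, 4.91 and 5.63 TPM, 1.57 above 168 h on the log2 scale (SE 0.19, adjusted p = 1.37e-06).

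Serpina3m, of the antichymotrypsin-like group on chromosome 12, rose and fell again within the time course. Its libraries had 1.09, 1.26 and 1.82 TPM at 0 h and 5.19, 6.08 and 4.57 TPM at 72 h. At 96 h they had 4.30, 4.47 and 5.10 TPM and at 168 h 0.427, 1.03 and 0.821 TPM. It was listed at 0 in both XEN libraries. The log2 change from 0 h was 1.40 at 72 h (SE 0.14, adjusted p = 3.38e-08) and 1.25 at 96 h (adjusted p = 1.45e-07). From 96 h to 168 h it was -1.69 (adjusted p = 2.42e-08), and Serpina3m was the only member called between these times, where 2.44% of all genes were called lower and 5.23% higher. XEN cells lay 1.24 below 0 h on the log2 scale (adjusted p = 5.82e-07). Its neighbour Serpina3k, which shares part of its sequence, was under the filter and also had its highest mean, of 0.389 TPM, at 72 h. Of the 75-base words of Serpina3m, 9.66% occur in another gene.

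Serpina3n and Serpina3h, also of the Serpina3 group, split by library number at each time of the induction. Serpina3n is a mouse counterpart of human antichymotrypsin, and Serpina3h is annotated as a transcribed pseudogene. Across the 7 groups of the induction, Serpina3n was between 2.85 and 21.1 TPM in the libraries numbered 3. The value of 21.1 TPM was that of 168 h, and the earlier libraries numbered 3 had at most 4.83 TPM. Serpina3n was between 0.0305 and 0.477 TPM in the libraries numbered 1 and between 0 and 0.618 TPM in those numbered 2. Serpina3h was between 0 and 0.152 TPM in libraries 3, and between 1.25 and 3.76 TPM and between 0.731 and 3.61 TPM in libraries 1 and 2. For both genes, the ranges of libraries 3 and of the others did not overlap. The fibroblast marker Thy1 was between 13.4 and 34.9 TPM in libraries 3 and between 1.20 and 4.75 TPM in the others. The sum of all 10 fibroblast markers was highest in library 3 at each time but 96 h. There library 3 had the lowest sum, 78.8 TPM, against 117 and 113 TPM in libraries 1 and 2. Neither gene was called at any time, with a log2 change of Serpina3n at 168 h of 0.90 (adjusted p = 0.458). With the fibroblast level as a covariate, Serpina3n at 168 h turned to -2.38 (adjusted p = 0.00119) and was called lower, and Serpina3h was called higher, at 1.94 (adjusted p = 0.00954). XEN cells had 0.384 and 0.314 TPM of Serpina3n and 1.86 and 4.98 TPM of Serpina3h.

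Serpinf1, or pigment epithelium-derived factor, is a secreted serpin that inhibits no protease. It was between 6.08 and 25.7 TPM at 0 h, between 12.4 and 31.9 TPM at 168 h and at 12.4 and 16.6 TPM in XEN cells. These ranges overlapped, and it was called in no comparison without a covariate (log2 change at 168 h 0.37, SE 0.52, adjusted p = 0.536). With the fibroblast level as a covariate the direction at 168 h turned, to -1.20 (SE 0.34, adjusted p = 0.00408), which was called lower. Its level was highest in the libraries numbered 3 at each time but 96 h. Serpina3i was the remaining tested member, with its highest mean, of 1.14 TPM, in XEN cells, where its difference from 168 h was 0.72 (adjusted p = 0.0256).

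XEN cells therefore differed from the 168 h libraries in both directions. Of the 14 tested members, Serpinb1a, Serpinb6b, Serpinb9b and Serpini1 were called higher and Serpinb6a, Serpinb9e and Serpine2 lower, where 4.73% of all genes were higher and 9.17% lower. The median log2 difference over all genes was -0.14 and went to -0.02 after median-of-ratios rescaling, under which the same counts of 4 and 3 members were called. Against 0 h, XEN cells were higher in Serpinb6b, Serpinb6c, Serpinb9b, Serpine2 and Serping1 and lower in Serpina3m, against 18.9% and 18.7% of all genes. Serpinb6c, Serpine2 and Serping1 were thus higher than at 0 h both in XEN cells and at 168 h, while Serpinb6a, with a log2 difference of 0.59 (adjusted p = 3.60e-05), passed the fold change minimum only in the induced cells.

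Most of the family was low, with 48 of the 62 members under a mean of 1 TPM in every group. The word GATA preceded by A or T and followed by A or G, searched on both strands in the 250 bases before the RefSeq gene starts (GRCm38.p6), occurred for 3 of the 10 tested members with an entry, Serpina3i, Serpina3n and Serpinf1, and for 20.1% of all tested genes with an entry. Over the family it occurred for 24 of 53 members, or 45.3%, and over all genes for 29.7%. Among the 48 untested members the highest group mean was 0.964 TPM. On chromosome 1, 1 of 14 members was tested, Serpine2, which lies away from the Serpinb cluster of that chromosome. On chromosome 12, 4 of 24 were tested, and the Serpina1 genes, whose products are the plasma antitrypsins, did not reach 0.5 TPM in any group. Serpinc1, antithrombin, had its highest mean at 168 h, of 0.487 TPM, and Serpinf2, the plasmin inhibitor, also at 168 h, of 0.917 TPM. Of the family members outside the rule, the collagen chaperone gene Serpinh1 averaged 42.8 ± 7.57 TPM before Dox, 4869 ± 276 TPM after 168 h and 3203 ± 50.4 TPM in XEN cells. Agt, angiotensinogen, did not exceed 0.132 TPM in any library.

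Lists of genes that work with serpins, chosen with earlier results of these data known, were counted at the same thresholds. Of 50 proteases and protease receptors 30 were tested, and at 168 h 17 were higher and 5 lower than at 0 h, where 22.6% and 16.5% of all genes were, with a median log2 change of 1.07 against 0.09 over all genes. The 3 largest increases were in Plat (6.74), Prss35 (6.56) and the thrombin-binding cofactor Thbd (6.22), and the largest decreases in Klk8 (-4.44), Pcsk6 (-2.43) and Klk1 (-1.64). The cysteine protease Ctsl, a lysosomal enzyme that some clade B serpins bind, averaged 68.4 TPM at 0 h and 1510 TPM at 168 h. Gzmb and Ctsg, targets of SERPINB9 and SERPINB6 relatives in immune cells, were listed at 0 in every library. In XEN cells 3 of the 30 were higher than at 168 h, Masp1 (1.51), Prss12 (1.26) and Plat (1.07), and 8 were lower, with Htra1 (-6.62), F2rl1 (-4.04) and F2r (-3.64) lowest, against 4.73% and 9.17% of all genes.

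Of 21 receptors and cofactors that clear serpin complexes 14 were tested. Against the 22.6% and 16.5% of all genes at 168 h, 8 were higher, led by the megalin gene Lrp2 (5.98), Lrpap1 (4.09) and Anxa2 (4.08), and 1 was lower, Sorl1 (-2.37). Against 4.73% and 9.17% of all genes, 1 was higher in XEN cells than at 168 h, Itgb5 (1.84), and 5 were lower, led by Gpc3 (-3.28), Vldlr (-2.69) and Lrp2 (-2.53). The medians were 1.64 and -0.54, against 0.09 and -0.14 over all genes. Of 42 genes for other families of protease inhibitors 22 were tested. At 168 h 9 were higher, led by Spock1 (6.70), Cst3 (4.01) and Tfpi (3.85), against 22.6% of all genes. In the other direction 3 were lower, Wfdc2 (-3.90), Spint1 (-1.78) and Pzp (-1.62), against 16.5%. In XEN cells 3 were higher than at 168 h, Pi16 (4.63), Wfdc1 (2.80) and Spink1 (1.62), against 4.73% of all genes. There 9 were lower, led by Spint2 (-2.30), Tfpi (-2.28) and Spint1 (-1.89), against 9.17%. The medians of this list were 0.35 and -0.22, against 0.09 and -0.14 over all genes.

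The siRNA series asked what Oct4, the pluripotency factor encoded by Pou5f1, contributes after 48 h of GATA6. Pou5f1 had 782, 895 and 1194 TPM as lowest, median and highest values in siCTL and 282, 314 and 387 TPM in siOct4. The groups did not overlap (log2 change -1.52, adjusted p = 5.21e-05). Consecutive libraries of a group were more alike than others in 5 of 6 cases, with an SD of log2 differences between 0.273 and 0.416, against 0.496 or more between other libraries of a group and 0.737 between siCTL 3 and 4. The table holds only genes that the authors had called responsive to GATA6, and 7 of the 8 serpins described here were tested among 6264 genes. In the main fit, by group alone, none was called higher or lower by limma, against 0.942% and 1.72% of all genes. At an unadjusted p under 0.05 that fit had 1 higher, Serpinb9b, and 1 lower, Serping1. The share of all genes at an unadjusted p was not counted here either. With the library number as a replicate block Serping1 was called lower.

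Serping1 had 26.8, 33.7 and 43.2 TPM as lowest, median and highest values in siCTL and 16.3, 21.6 and 26.6 TPM in siOct4. Every siOct4 library lay below every siCTL library. The log2 change was -0.65 (SE 0.17, adjusted p = 0.0553), which missed the threshold. Libraries of the same number deviated together in this table, and with the number as a replicate block Serping1 was called (-0.65, adjusted p = 0.00931). Whether libraries of different numbers deviate together as well was not tested, so the pairing behind this block is an assumption. With median-of-ratios rescaling it was -0.51 (adjusted p = 0.178), since the median change over all genes was -0.12 before and 0.01 after rescaling. Without 1 library number at a time the adjusted p was between 0.0719 and 0.186, and with consecutive libraries averaged it was 0.495.

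Serpinb9b had 1.69, 3.11 and 4.99 TPM in siCTL and 3.38, 4.33 and 10.4 TPM in siOct4, and the groups overlapped (log2 change 0.61, SE 0.27, adjusted p = 0.336). It was called after rescaling (0.73, adjusted p = 0.0492) and with the fibroblast level as a covariate (0.73, adjusted p = 0.0420). Its 2 highest libraries were siOct4 5 and 6. The sum of 6 fibroblast markers was 236 and 210 TPM in these libraries and between 30.6 and 72.4 TPM in the other siOct4 libraries, and it was 207, 193 and 230 TPM in siCTL 1, 2 and 4. The trophoblast marker Hand1 had 38.1 and 34.3 TPM in siOct4 5 and 6 and between 1.27 and 7.41 TPM in all other libraries. Of the 5 listed trophoblast markers measured in this series, Ascl2, Cdx2 and Krt7 were also highest in siOct4 5 and 6. Eomes was not, at 8.70 and 9.65 TPM in siOct4 5 and 6 and 16.1 TPM in siCTL 4. The part of these genes in the Serpinb9b level was not tested. Serpinb6a had medians of 185 and 197 TPM (log2 change 0.02, SE 0.11, adjusted p = 0.959) and Serpinb6c medians of 65.2 and 65.8 TPM (0.10, SE 0.26, adjusted p = 0.918). Serpine2, with medians of 98.5 and 102 TPM, had a log2 change of 0.20 (SE 0.27, adjusted p = 0.802). The untested Serpinb9e was between 0 and 0.173 TPM in siCTL and between 0.0797 and 1.79 TPM in siOct4, and without the filter its log2 change was 0.78 (SE 0.23, adjusted p = 0.0963).

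Serpini1, with a log2 change of -0.22 (adjusted p = 0.790), and Serpinb6b, with 0.00 (adjusted p = 0.997), also overlapped between the groups.

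**Figure D4:**
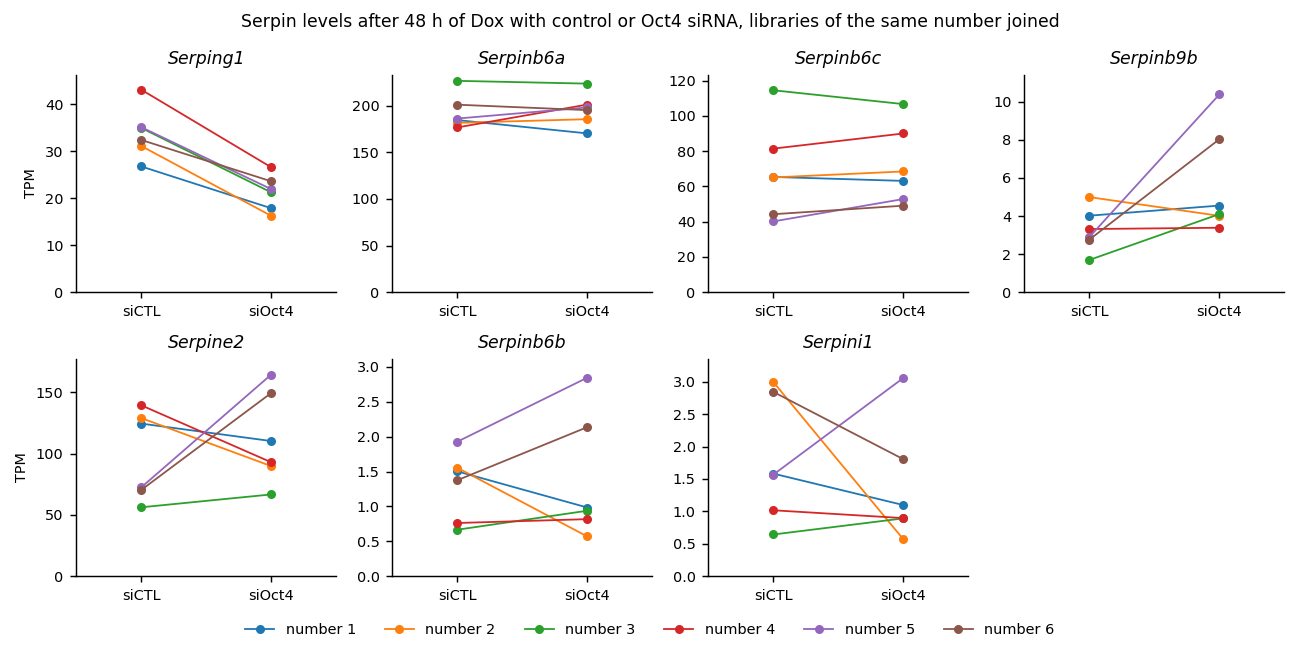
TPM of the 7 tested serpins of the siRNA table (vertical axes, linear, each from 0) in siCTL and siOct4 libraries, with libraries of the same number joined. Serping1 is lower with siOct4 in each of the 6 joined pairs, the Serpinb6a and Serpinb6c groups overlap, and Serpinb9b is highest in siOct4 5 and siOct4 6.

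Of the genes that work with serpins, 21 of the proteases and receptors were tested in the siRNA table, and Plat was higher with siOct4 (1.25, adjusted p = 0.0288) while F2r (-1.35), Htra1 (-1.29) and Ctsl (-0.81) were lower, where 0.942% of all genes were higher and 1.72% lower. Of 10 clearance genes Sdc4 was lower (-0.58, adjusted p = 0.0396), and of 11 other inhibitor genes none was called. Plat averaged 7.32 ± 2.80 TPM in siCTL and 18.7 ± 6.22 TPM in siOct4 (SD, n = 6). The medians of these lists were 0.04, -0.29 and 0.04, against -0.12 over all genes.

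The cell identities given by the labels were checked with markers. The 10 primitive endoderm markers summed to between 30.8 and 43.1 TPM at 0 h and between 6354 and 6768 TPM at 168 h, the 10 pluripotency markers to between 9507 and 9781 TPM and between 1923 and 2722 TPM. In XEN cells they summed to between 5234 and 5255 TPM and between 95.6 and 100 TPM. At 168 h all 8 parietal and all 8 visceral endoderm markers averaged 1 TPM or more, and the visceral sum was between 102 and 302 TPM. In library 3 of that time, however, Afp, Apoa1 and Apob were at 0.182, 0.101 and 0.0608 TPM, against 2.91 TPM or more in libraries 1 and 2. XEN cells had a visceral sum of 34.5 TPM with Apoa1, Apob and Amn under 1 TPM. The fibroblast sum was highest at 168 h, and 7 of the 10 fibroblast markers were called higher there than at 0 h, against 22.6% of all genes. A covariate made from these markers thus moved in part with time. With the fibroblast level as a covariate, the 5 members called higher at 168 h were called again and Serpina3h with them, and Serpinb1a, Serpina3n and Serpinf1 were called lower. In bulk RNA, fewer cells of a type and less RNA per cell cannot be told apart. The depth of the libraries is unknown, since TPM keep no counts, and the libraries of a group are independent replicates by the study's methods, which do not say whether they were separate cultures.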

How the data were processed

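Directional polyA libraries were sequenced and the authors aligned the reads with STAR to mm10 and estimated the deposited TPM values with RSEM. The submitters' processing notes also name cutadapt and bcl2fastq. Counting was strand-specific and paired-end, outliers on a principal component were omitted by the authors, and versions are not given in the sources used here. TPM keep no depth, so no counting interval is given.

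The members and gene lists were chosen with earlier results of these data known. Genes that averaged 1 TPM or more in any group were tested on log2(TPM + 1) with limma 3.58.1 (trend and robust) in R 4.3.3 and Benjamini-Hochberg adjustment over all tested genes, and the fit was tested on simulated data. All tested members are named, and some untested members and genes of the lists are named beside them. A gene that the symbol rule also covers is not reported here and is left out of counts and sums of members, but not of the fits. Alternatives were another pseudocount, no filter, median-of-ratios rescaling, no fold change minimum, each replicate left out and a replicate block. A fibroblast covariate and averaging of consecutive siRNA libraries were chosen after seeing the data. Same-numbered siRNA libraries deviated together in 6 of 6 pairs (correlations 0.236 to 0.707), and the replicate block took these numbers to pair the libraries. Differently numbered libraries of the 2 groups were not correlated, so a pairing by number is assumed and not shown. The main siRNA fit had the group only and did not use this pairing. At 72 h the correlations with 0 h were 0.115 to 0.193. Coding and loop sequences came from GENCODE M21. The siRNA table also has 2 text columns with the authors' response classes, which were not used.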

Additional observations from a re-analysis of the deposited data

How the results depend on the processing

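With the fibroblast covariate the direction turned for Serpina3n at 168 h against 0 h (-2.38) and against 96 h (-1.57) and for Serpinf1 at 168 h against 0 h (-1.20), and no other result reversed under the alternatives run. With a pseudocount of 0.1, the members called higher were 1 at 16 h, 2 at 24 h and 1 from 96 h to 168 h, and those called lower were 2 at 72 h, 2 at 168 h and 2 from 96 h to 168 h. With no fold change minimum, 3 were higher and 2 lower at 24 h, 6 higher at 48 h, 2 lower at 72 h, 2 lower at 96 h, 3 lower at 168 h, 3 higher from 96 h to 168 h, 5 lower in XEN cells than at 168 h and 8 higher in XEN cells than at 0 h. With median-of-ratios rescaling 2 were lower at 168 h and 1 was higher with siOct4. With the fibroblast covariate, 3 were lower at 168 h, 2 were lower from 96 h to 168 h, 2 were lower in XEN cells than at 0 h, and 1 was higher and 1 lower with siOct4. Leaving out 1 replicate gave 0 to 1 higher at 24 h, 2 to 3 at 48 h, 5 to 6 at 72 h, 7 to 8 at 96 h, 5 to 6 at 168 h and 3 to 4 in XEN cells against 168 h, and 0 to 2 lower at 168 h. With the replicate block, 1 member, Serping1, was lower with siOct4, and at 72 h, the only time at which all pairs deviated together, the block changed no call. The shares of all genes called under these alternatives were not counted, so the member counts have no baseline and show only how the calls shift. The causes of these shifts were not tested. The unknown depth limits what can be said of members under 1 TPM.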
